A study of Mus musculus with 7 samples.

Results

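The mouse genes named Zfp plus a number were followed through 6 maps of 5-formylcytosine (5fC), an oxidation product of 5-methylcytosine, in J1 embryonic stem (ES) cells. They comprised the autosomal protein-coding genes of GENCODE M1 on mm9 with such a symbol, Zfp42 left out, and were 332 of 21275 genes. The rule used the symbol and the chromosome alone and no 5fC value. J1 is an ES cell line of the 129S4/SvJae strain. TDG KD cells were grown without feeders and transfected repeatedly with a pool of siRNAs against Tdg (libraries bham480 and ear003), siRNA control cells received a non-targeting siRNA in the same way (bham479 and ear001), and wild-type (WT) cells were untransfected and grown on irradiated feeder fibroblasts (bham359_362 and bham470). The formyl group was tagged with biotin, and the captured genomic DNA was sequenced beside 1 input library that served every pulldown. Feeders and transfection differed together between siRNA control and WT and cannot be told apart. The label ES cell could not be checked against marker genes in captured DNA, and the level of the Tdg transcript was not analysed here. The libraries of a condition are described as biological replicates, but whether they came from separate cultures is not stated, so their spread may be partly technical.

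Most proteins of this family bind DNA through arrays of C2H2 zinc fingers, each a short loop folded around a zinc ion, and many also carry a KRAB domain that recruits the corepressor TRIM28 and, through it, the histone methyltransferase SETDB1. KRAB zinc finger proteins are best known for silencing retrotransposons and for protecting imprints in ES cells and early embryos. Their genes multiplied by tandem duplication and often sit side by side, and the finger array is usually encoded by the last exon. TDG, thymine DNA glycosylase, excises 5fC from DNA. Of the 332 Zfp genes, 318 encoded at least 1 C2H2 motif, with a median of 10 motifs per protein, and 82.9% of all motifs lay in the last exon. A neighbouring Zfp gene within 100 kb was found for 179 genes, in 45 clusters, and 153 genes were lone. Only members counted as neighbours, and 454 of the other genes also encoded at least 1 C2H2 motif. A lone gene can thus lie beside a zinc finger gene of another name. Clustered genes had a median of 12 motifs, 93.5% of them in the last exon, and lone genes a median of 8, with 66.1% in the last exon.

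To show what the last exon looks like at both ends of the 5fC range, the middle 240 bases of its coding part are given for the clustered and the lone member with the highest and with the lowest 5fC there, in the coding direction, on mm9. They are chr8:72289872-72290111 (Zfp866, minus strand), chr8:125791684-125791923 (Zfp276, plus strand), chr17:21534556-21534795 (Zfp677, plus strand) and chr4:147049130-147049369 (Zfp534, minus strand). Capitals mark CpG, the dinucleotide at which most 5fC arises.
Zfp866 (last exon): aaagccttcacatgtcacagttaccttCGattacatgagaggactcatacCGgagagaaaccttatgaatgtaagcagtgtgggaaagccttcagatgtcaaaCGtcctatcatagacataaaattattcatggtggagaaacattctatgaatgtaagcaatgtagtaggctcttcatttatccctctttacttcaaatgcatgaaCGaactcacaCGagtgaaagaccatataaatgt
Zfp276 (last exon): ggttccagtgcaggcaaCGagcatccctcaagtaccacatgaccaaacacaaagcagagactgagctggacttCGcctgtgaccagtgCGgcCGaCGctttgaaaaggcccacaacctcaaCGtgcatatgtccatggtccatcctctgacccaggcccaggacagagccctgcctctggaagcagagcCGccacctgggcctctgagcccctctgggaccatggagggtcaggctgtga
Zfp677 (last exon): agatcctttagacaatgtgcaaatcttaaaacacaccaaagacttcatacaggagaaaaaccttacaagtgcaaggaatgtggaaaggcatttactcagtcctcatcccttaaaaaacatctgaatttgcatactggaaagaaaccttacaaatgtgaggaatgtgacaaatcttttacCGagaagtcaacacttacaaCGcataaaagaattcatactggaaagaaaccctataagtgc
Zfp534 (last exon): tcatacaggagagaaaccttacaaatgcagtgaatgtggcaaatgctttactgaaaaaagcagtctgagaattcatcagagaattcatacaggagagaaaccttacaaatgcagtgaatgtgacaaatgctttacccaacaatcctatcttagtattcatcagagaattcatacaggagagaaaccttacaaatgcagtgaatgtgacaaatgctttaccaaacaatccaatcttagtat
The last exons of Zfp866 and Zfp276 were enriched for 5fC in all 6 libraries and their stretches hold 5 and 7 CpGs. Those of Zfp677 and Zfp534 were enriched in 0 libraries and hold 2 and 0 CpGs. The same window held a median of 5 CpGs in 280 Zfp genes with a long enough coding part and of 6 in 5251 other genes. It had no CpG in 7.50% of Zfp genes and in 4.42% of other genes.

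The promoters of the highest and the lowest member are given for the same reason, as the 300 bases centred on the transcription start, chr8:125777945-125778244 (Zfp276, plus strand) and chr4:147076512-147076811 (Zfp534, minus strand), again with CpG in capitals.
Zfp276 (promoter): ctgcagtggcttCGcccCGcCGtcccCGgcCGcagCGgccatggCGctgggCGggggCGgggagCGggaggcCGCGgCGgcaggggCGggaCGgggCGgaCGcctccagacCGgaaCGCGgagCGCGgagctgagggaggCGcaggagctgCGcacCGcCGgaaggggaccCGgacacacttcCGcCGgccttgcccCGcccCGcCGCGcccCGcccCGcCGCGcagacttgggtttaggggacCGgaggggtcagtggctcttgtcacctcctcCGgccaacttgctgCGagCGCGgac
Zfp534 (promoter): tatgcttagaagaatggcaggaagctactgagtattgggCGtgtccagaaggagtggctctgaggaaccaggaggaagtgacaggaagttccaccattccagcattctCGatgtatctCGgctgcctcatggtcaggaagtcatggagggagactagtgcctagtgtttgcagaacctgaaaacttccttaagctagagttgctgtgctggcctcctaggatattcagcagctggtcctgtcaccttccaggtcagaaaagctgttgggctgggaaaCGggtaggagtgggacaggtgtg
The Zfp276 stretch holds 42 CpGs and the Zfp534 stretch 4, against a median of 16.5 in Zfp genes and 16.0 in other genes. Zfp534 is also highly repeated: only 17.2% of the 40-base words of its promoter and 19.3% of those of its last exon occur once in mm9, and only such words place a read uniquely.

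Depth was 20.4 to 45.9 M (megareads) per pulldown, counting uniquely placed reads, and the libraries were not alike. A domain caller, rseg, had divided the genome of each library into enriched, background and unconfident domains. A promoter (1000 bp on each side of the start), a last exon or the rest of a gene body counted as enriched here when at least 50% of its length lay in enriched domains. TDG KD library bham480, the one with the fewest reads, stood apart: 504.9 Mb of its sequence was unconfident, against 0.214 to 6.30 Mb in the others, and it had 161.1 Mb in enriched domains, against 475.3 to 566.2 Mb. It was unconfident over 31.3% of Zfp promoters and 34.2% of other promoters, so a share of 0 enriched in bham480 does not always stand for background. WT library bham359_362 was the deepest and had narrow enriched domains, 700 bp wide at the median, against 5900 to 24550 bp in the others. One domain spanned both the start and the last exon in 13.3% of Zfp genes in bham359_362, but in 58.3% to 78.8% in the others, where the parts of a gene are not separate measurements. Chromosome 8 stood apart as well. Among the 25 Zfp genes there, the promoter was enriched in 48.0% and 72.0% in TDG KD, in 72.0% and 96.0% in siRNA control and in 28.0% and 48.0% in WT. On the other autosomes it was enriched in 8.14% and 46.6% of 307 Zfp genes in TDG KD, in 33.9% and 29.0% in siRNA control and in 44.3% and 39.4% in WT, so Zfp promoters on chromosome 8 were higher in all libraries but bham359_362. The other genes of chromosome 8 were high too: 53.9% and 86.4% of 1047 promoters were enriched in TDG KD, 84.0% and 87.5% in siRNA control and 67.4% and 71.7% in WT, above the Zfp genes there in all libraries but ear001 and above the other genes of the other autosomes in all 6. The copy number of chromosome 8 was not measured, and its part in the values was not tested.

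Zfp genes were called enriched for 5fC less often than other genes, in every part and every library. Promoters of the 332 Zfp genes were enriched in 11.1% (bham480) and 48.5% (ear003) in TDG KD, in 36.7% (bham479) and 34.0% (ear001) in siRNA control and in 43.1% (bham359_362) and 40.1% (bham470) in WT. Over all genes with a value, the shares in the same order were 16.0%, 55.8%, 45.6%, 41.8%, 53.4% and 49.2%. Zfp promoters averaged 35.6% ± 13.0 and other promoters 43.7% ± 14.5 (SD over 6 libraries), a difference of -8.15 ± 1.92 percentage points that was below 0 in 6 of 6 libraries. The level was lowest in bham480 for both sets, and the SD of the difference was smaller than that of either level.

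The last exon, which encodes most of the fingers, showed a larger gap. It was enriched in 10.9% and 40.3% of 320 Zfp genes in TDG KD (bham480 and ear003), in 38.1% and 40.6% in siRNA control (bham479 and ear001) and in 42.5% and 41.9% in WT (bham359_362 and bham470). Over all genes the shares were 18.0%, 54.8%, 52.8%, 51.1%, 47.4% and 54.0% in that order. Zfp last exons averaged 35.7% ± 12.2 and those of other genes 46.6% ± 14.2, a difference of -10.8 ± 4.05 points, below 0 in 6 of 6 libraries. The gap was narrowest in bham359_362, at -4.97 points for the whole last exon. In that library its coding part was enriched in 47.5% of Zfp genes and 64.4% of other genes. The untranslated part was enriched in 28.6% and 43.3%, so within each of these portions the gap was wider.

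The rest of the gene body, mostly introns, was enriched in 29.0% ± 10.9 of Zfp genes and 41.5% ± 12.9 of other genes, for both the lowest mean of the 3 parts. It was enriched in 9.69% and 36.6% of 320 Zfp genes in TDG KD, in 35.0% and 34.7% in siRNA control and in 21.9% and 35.9% in WT, in the same order of libraries. Over all genes it was enriched in 16.3%, 49.0%, 47.7%, 46.5%, 39.1% and 49.1%. The difference from other genes was -12.5 ± 3.47 points and reached -17.5 points in bham359_362, though in both TDG KD libraries and in bham479 the gap was larger in the last exon. Without bham480 the mean difference was slightly larger in each part. Read as a level, the excess (the value of the domain minus the library mean, per M reads) was also below that of other genes in 6 of 6 libraries for each part.

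Few members were called enriched in all 6 libraries, a count that the few calls in bham480 limit for every set. The promoter was enriched in all 6 libraries in 14 Zfp genes (4.22%), against 11.1% of all genes, and in no library in 101 (30.4%), against 28.7%. The last exon was enriched in all 6 in 21 (6.56%), against 13.7%, and in none in 130 (40.6%), against 31.8%. The rest of the body was enriched in all 6 in 15 (4.69%), against 13.3%, and in none in 158 (49.4%), against 41.2%. With bham480 left aside, the promoter was enriched in all 5 other libraries in 48 Zfp genes (14.5%), against 27.4% of other genes. For the last exon it was 73 (22.8%), against 34.3%, and for the rest 47 (14.7%), against 32.7%. Zfp genes thus differed from the background mainly at the upper end for promoters and at both ends for the last exon and the rest.

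**Figure D1:**
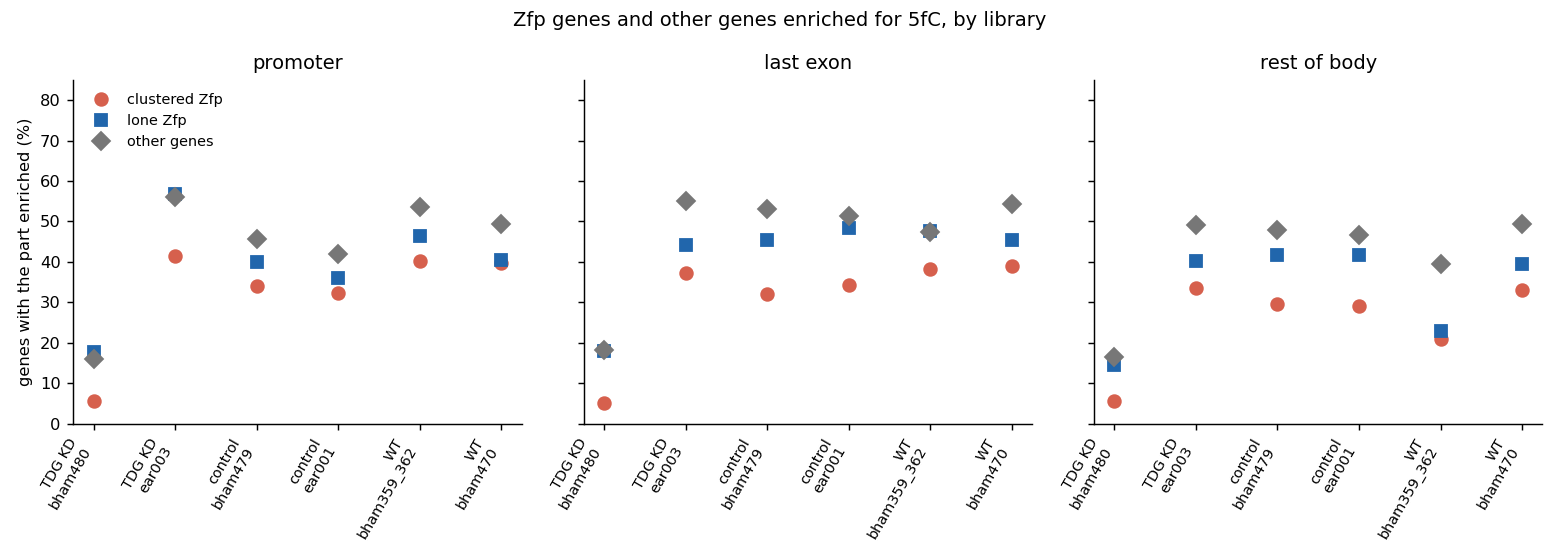
Percent of genes whose promoter, last exon or rest of body was enriched for 5fC (vertical axis), for clustered Zfp genes, lone Zfp genes and other genes in each of the 6 libraries (horizontal axis). Each point is 1 gene set in 1 library; clustered Zfp genes lie below other genes in all 18 positions, and all sets are low in bham480.

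Genes with a Zfp neighbour within 100 kb were enriched less often than lone ones. The last exon was enriched in 5.14% of clustered and 17.9% of lone genes in bham480, and in 37.1% and 44.1% in ear003 (TDG KD). It was enriched in 32.0% of clustered and 45.5% of lone genes in bham479, and in 34.3% and 48.3% in ear001 (siRNA control). In WT the shares were 38.3% of clustered and 47.6% of lone genes in bham359_362, and 38.9% and 45.5% in bham470. Over the libraries the difference was -10.5 ± 3.32 points for the last exon, -7.33 ± 5.47 for the promoter and -8.16 ± 4.01 for the rest of the body, each below 0 in 6 of 6. Lone genes were nearer to other genes: they differed from them by -5.06 ± 4.66 points in the last exon, with 5 of 6 libraries below 0, by -4.20 ± 4.37 in the promoter, with 4 of 6, and by -8.05 ± 5.02 in the rest, with 6 of 6. The contrast between clustered and lone genes depended on where a cluster ends and on chromosome 7, which holds 86 members. It was -5.24 points for the last exon with a distance of 50 kb, below 0 in 5 of 6 libraries, and -17.7 points without chromosome 7.

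CpG-rich promoters were less common among clustered genes. A promoter was called CpG-rich when some 500 bp window in it reached 55% GC and 0.65 times the CpGs expected from its base content. This held for 100 of 179 clustered Zfp genes (55.9%), 110 of 153 lone ones (71.9%) and 54.7% of other genes. Among genes with a CpG-rich promoter, the last exon was enriched in 42.1% ± 17.6 of clustered and 49.8% ± 14.3 of lone genes, a difference of -7.75 ± 4.58 points, below 0 in 6 of 6 libraries. The promoter itself differed by -7.03 ± 6.88 points there, with 4 of 6 libraries below 0. Among genes without such a promoter the order did not hold: the difference was -3.14 ± 5.37 points in the last exon, 3.27 ± 8.55 in the promoter and 0.855 ± 6.77 in the rest, all smaller than their spread over libraries. The promoter was below 0 in 4 of 6 libraries, and its mean rests on 16.4 points in bham359_362 and 11.4 in bham470, both WT. In excess, the rest of the body was higher in clustered genes in 6 of 6 libraries, by 0.00268 ± 0.00255 per M reads.

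The gap to other genes also went with the promoter class. With a CpG-rich promoter, Zfp genes differed from other genes of that class by -6.50 ± 3.43 points in the promoter, -3.78 ± 4.52 in the last exon and -6.59 ± 3.21 in the rest. In the last exon bham359_362 went the other way, at 4.74 points. Without a CpG-rich promoter the differences were -14.6 ± 4.49, -23.4 ± 7.19 and -23.1 ± 6.63 points in these parts. In that class the last exon was enriched in 17.5% ± 6.23 of 116 Zfp genes, against 41.0% ± 12.7 of 6077 other genes.

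The last exons of Zfp genes and of other genes had nearly the same median CpG density, 13.9 and 13.8 CpG per kb, but the enrichment at a given density differed. All genes were split into 4 bins of like size by the CpG density of the last exon. In the bin with the fewest CpGs, below 8.62 per kb, the last exon was enriched in 5.56% ± 3.69 of 93 Zfp genes and 19.2% ± 6.49 of 3823 other genes. The next bin gave 23.0% ± 10.7 of 63 Zfp genes and 39.0% ± 13.3 of other genes, and the one after it 40.7% ± 15.1 of 59 Zfp genes and 56.9% ± 17.7 of other genes. In the bin with the most, above 20.4 per kb, the values were 67.3% ± 23.6 of 105 Zfp genes and 69.9% ± 19.2 of 3949 other genes. With other genes weighted to the bins of the Zfp last exons, a step chosen after the values were seen, the difference was -11.0 ± 3.78 points. Across genes within a library, CpG density of the last exon and its excess had a Spearman's rho of 0.53 to 0.76 in 320 Zfp genes and of 0.40 to 0.52 in other genes. Neighbouring genes share domains and are not independent points.

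**Figure D2:**
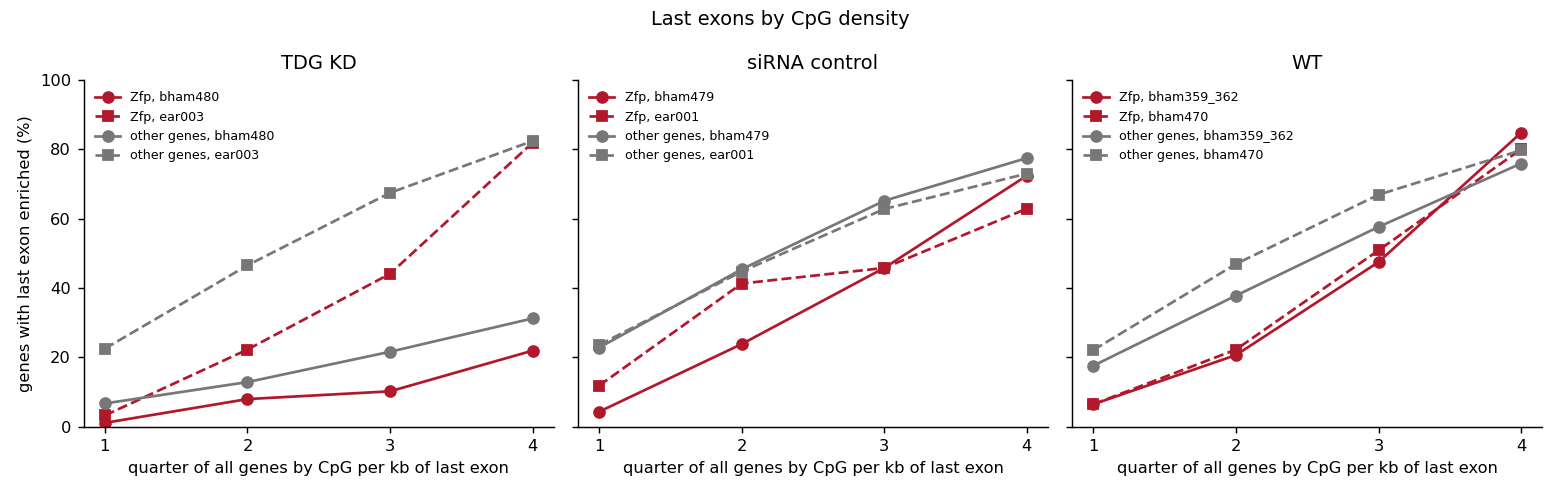
Percent of genes with an enriched last exon (vertical axis) in each of 4 bins of all genes by CpG per kb of the last exon (horizontal axis, few to many), for Zfp genes and other genes, with 1 line per library. The lines of Zfp genes start lower, at 1.08% to 11.8% in the bin with the fewest CpGs, and come close to those of other genes in the bin with the most.

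Last exons with long finger arrays were enriched less often. The share was 51.3% ± 16.8 of 93 genes with 0 to 4 C2H2 motifs in the last exon, 39.1% ± 16.0 of 69 genes with 5 to 9 and 25.1% ± 8.44 of 158 genes with 10 or more. The same order held in the rest of the body, at 39.8%, 32.4% and 20.8%, and in the promoter, at 43.5%, 37.1% and 29.8%, so it was not limited to the exon that holds the fingers. Long arrays are repetitive, and rho between excess and the share of unique 40-base words of the last exon was 0.28 to 0.42 in Zfp genes. Among genes with at least 90% unique words, where reads can be placed well, the difference from other genes was -11.4 ± 2.95 points in the promoter, -8.92 ± 4.20 in the last exon and -11.4 ± 3.81 in the rest.

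Within Zfp genes the last exon was enriched more often than the rest of the same gene. Over 313 genes with both parts, the last exon was enriched in 10.9% and the rest in 9.58% in bham480, and in 39.9% and 36.7% in ear003 (TDG KD). The values were 37.7% and 35.1% in bham479, and 40.6% and 34.8% in ear001 (siRNA control). In WT they were 42.2% and 21.7% in bham359_362, and 41.2% and 36.1% in bham470. The difference was 6.39 ± 7.08 points, above 0 in 6 of 6 libraries, and 3.58 points without bham359_362. When any overlap with an enriched domain counted, it turned to -11.3 points. In other genes the difference in calls was 4.87 ± 2.08 points. As mean percent of length in enriched domains, it was 3.84 ± 3.38 points in Zfp genes and 4.00 ± 1.71 in other genes. In bham359_362 that measure gave 10.2 points for Zfp genes. Clustered Zfp genes gave 2.18 ± 3.54 points on it, above 0 in 4 of 6 libraries. Lone ones gave 5.87 ± 3.26, above 0 in 6 of 6. The maps of bham359_362 resolve this region. In that library the coding part of the last exon was enriched in 47.5% of 282 Zfp genes and the untranslated part in 28.6% of 255, against 64.4% and 43.3% in other genes, so the contrast was not particular to Zfp genes. In ear003, the next largest gap in that direction, the shares were 41.1% and 38.8%. The coding part was lower in bham470, the other WT library (41.1% and 42.0%), in ear001 (39.0% and 41.2%) and in bham480 (10.3% and 10.6%). In bham479 both shares were 36.9%. Along the gene the share in bham359_362 was 40.3% at 1000 bp before the transcript end and 22.1% at the end, against 45.8% and 35.9% in other genes.

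**Figure D3:**
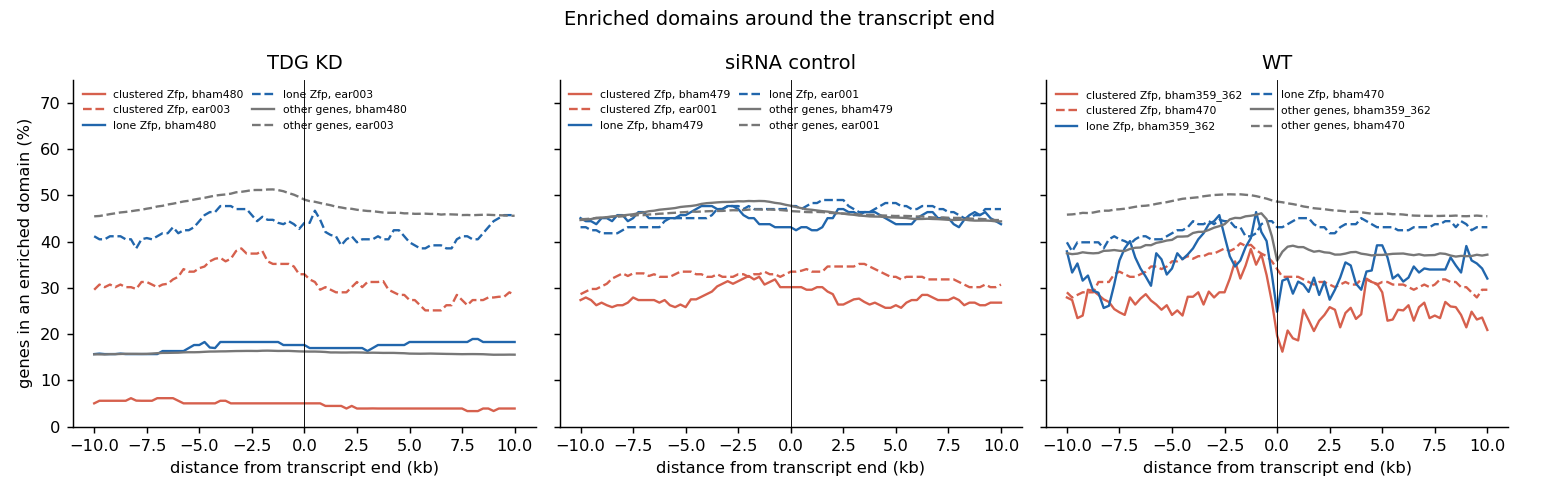
Percent of genes in an enriched domain (vertical axis) by distance from the transcript end in kb (horizontal axis, negative inside the gene), for clustered Zfp, lone Zfp and other genes, with 1 line per library in TDG KD, siRNA control and WT. In bham359_362 the share drops at the end, to 19.7% of clustered and 24.8% of lone Zfp genes, and the other libraries show no drop of that size there.

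The clusters differed widely from each other, also the 3 with the most members. The median cluster had between 0 (bham480) and 27.8% (bham470) of its span in enriched domains, and the range within a library was as wide as 0 to 100%. Cluster 33, chr13:67139530-67654065, with 14 members including Zfp708, Zfp457 and Zfp58, had 0.875% and 2.28% of its span enriched in TDG KD, 4.22% and 1.55% in siRNA control and 8.12% and 2.82% in WT. None of its last exons was enriched in any library. Cluster 18, chr7:30553571-30954746, also with 14 members, among them Zfp568, Zfp30 and Zfp27, had 0 and 42.0% enriched in TDG KD, 19.7% and 26.2% in siRNA control and 36.0% and 43.0% in WT. Cluster 15, chr7:24866943-25101685, with 10 members such as Zfp180 and Zfp112, had 0 and 33.3% in TDG KD, 31.7% and 22.6% in siRNA control and 34.3% and 45.1% in WT.

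Smaller clusters reached further in both directions and are named after their values were seen. Cluster 10, chr7:4866819-5005324, with 6 members including Zfp628 and Zfp580, had 0 and 90.0% of its span enriched in TDG KD, 85.2% and 94.7% in siRNA control and 67.4% and 89.5% in WT. In bham480 the whole span of cluster 10 was unconfident, with an excess of 0.00992, so its 0 is the lack of a confident call. The spans of clusters 18 and 15 were unconfident over 37.7% and 35.9% in that library. Cluster 39 on chromosome 17, with 6 members including Zfp677 and Zfp51, had 0 to 6.59% in the 6 libraries. In bham480, 37 of the 45 clusters had less than 10% of their span enriched, against 14 to 19 in the other libraries. Of the members of cluster 10, 5 of 6 had a CpG-rich promoter, and of cluster 33, 2 of 14.

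**Figure D4:**
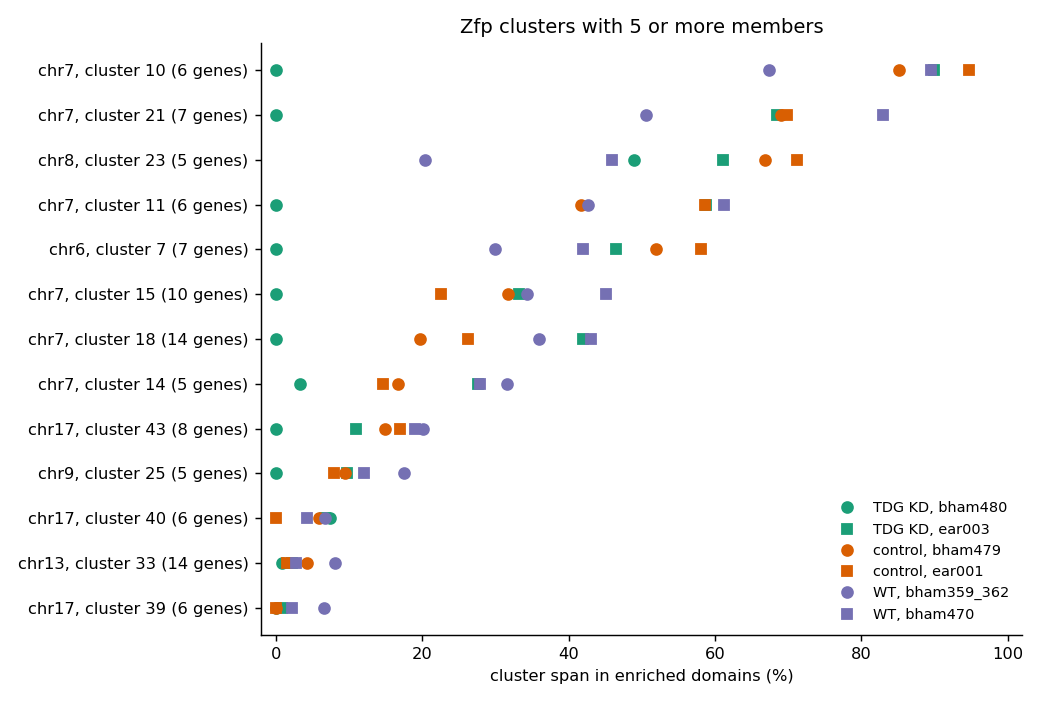
Percent of the span of each cluster in enriched domains (horizontal axis) for the 13 clusters with 5 or more Zfp genes, ordered by their mean; each point is 1 library. The clusters run from near 0 (clusters 39, 33 and 40) to 67.4% to 94.7% in cluster 10 with bham480 left aside, where 100% of that span was unconfident and the point at 0 marks no confident call.

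The 3 members with the highest last exons all lay on chromosome 8. Zfp276 (chr8:125778095-125793645), Zfp319 (chr8:97850037-97855850) and Zfp358 (chr8:3493138-3497208) had last exons fully enriched in all 6 libraries, with mean percentiles of 97.2, 95.4 and 92.7 among all genes. Zfp866, on the same chromosome in cluster 23, was the highest clustered gene: 100% and 100% of its last exon was enriched in TDG KD, 100% and 100% in siRNA control and 74.2% and 100% in WT. Zfp12, in a cluster on chromosome 5, was next among clustered genes, with 100% in 5 libraries and 85.2% in bham359_362. Among promoters Zfp276 and Zfp319 led as well, followed by Zfp963, and in the rest of the body Zfp276, Zfp423 and Zfp651. At the other end, Zfp534, Zfp808 and Zfp677 had the lowest last exons, at mean percentiles of 0.216, 2.94 and 3.66, and 0% enriched in every library except 0.618% for Zfp677 in bham359_362. The promoters of Zfp534, Zfp600 and Zfp97 and the remaining bodies of Zfp534, Zfp97 and Zfp51 were lowest. The promoters of Zfp534, Zfp600 and Zfp97 were poorly mappable, with 17.2%, 19.7% and 0.866% unique 40-base words.

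The listed regulators of repeats and imprints were enriched in at most 3 libraries in any part. Zfp57, which keeps methylation at imprinted loci, had an enriched share of 0% in its last exon in all 6 libraries, and its promoter was at 0% in 5 and at 45.5% in bham359_362. Zfp932, a repressor of endogenous retroviruses, was at 0% in every part and library, with 35.7% unique words in its last exon. Zfp809, which silences murine leukaemia virus sequences, had an enriched promoter in ear003 (77.5%) and bham359_362 (72.2%) and 0% in the others. The last exon of Zfp568, a repressor of a placental Igf2 transcript, was at 0 and 100% in TDG KD, 0 and 0 in siRNA control and 93.1% and 100% in WT, so TDG KD and WT overlapped. The 6 partners of KRAB proteins tested beside them (Trim28, Setdb1, Cbx1, Cbx3, Cbx5 and Atf7ip) had an enriched promoter in 16.7% ± 21.1, a last exon in 27.8% ± 27.2 and a rest of body in 11.1% ± 8.61, against 43.7%, 46.6% and 41.5% of other genes.

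Regulators of transcription and development spread over the whole range. Zfp335, a component of a histone methyltransferase complex needed in neural progenitors, was enriched in all 6 libraries in all 3 parts, with its last exon at 100% throughout. Zfp423, a partner of EBF factors, was enriched in 6 libraries in the rest of its body and in 5 in its promoter and last exon, on chromosome 8. Zfp503 and Zfp36, which encodes the mRNA decay factor tristetraprolin with fingers of another type, were enriched in promoter and last exon in 5 libraries, all but bham480. The pluripotency regulator Zfp281 had an enriched promoter in bham359_362 alone (64.5%), and Zfp143, an activator that binds promoters, in 0 libraries. Zfp148 had an enriched promoter in 4 libraries and a last exon in 0, Zfp462 in 3 and 0, and Zfp217 in 1 and 1. The rest of the body was enriched in 4 libraries for Zfp217 and in 0 for Zfp148 and Zfp462. Zfp318 had an enriched promoter in 1 library and a last exon in 0. For Zfp207, a protein of the mitotic spindle, and Zfp521 the promoter was enriched in 0 libraries and the last exon had no value. Zfp407 was the only member with its last exon enriched in all 6 libraries and the rest of its body in none, at 6.49% to 23.6% of the rest.

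Zbtb and Klf genes were enriched more often than Zfp genes. Zbtb genes, which pair C2H2 fingers with a BTB domain, had an enriched last exon in 55.0% ± 15.0 of 30 genes, and Klf genes, with a short array of fingers, in 48.8% ± 10.5 of 14. Zfp genes differed from Zbtb genes by -19.3 ± 5.98 points and from Klf genes by -13.1 ± 3.31 points there, below 0 in 6 of 6 libraries for both. Zscan and Zkscan genes, which carry a SCAN domain and often sit in the same clusters, were at 31.5% ± 15.2 of 18 genes. The difference of Zfp genes from them was 4.25 ± 7.90 points, above 0 in 4 of 6 libraries and smaller than its spread.

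The effect of TDG KD on Zfp genes could not be separated from the spread between libraries. Excess was fitted with limma over all genes, and no Zfp promoter, last exon or rest of body passed an adjusted p of 0.05 for TDG KD minus siRNA control, with 0.0%, 0.0% and 0.0% of all genes called. At an unadjusted p under 0.05 limma gave 180, 95 and 164 genes in these parts, 0.857%, 0.570% and 0.928% of all tested. Of them 4, 3 and 7 were Zfp genes, 1.20%, 0.94% and 2.19% of the members tested. The median difference of the members was 0.000623 per M reads for promoters, against 0.00224 for all genes, -0.00145 against 0.00183 for last exons and -0.000973 against 0.00100 for the rest. The smallest p values among members were those of Zfp646 (promoter), Zfp746 (last exon) and Zfp936 (rest), with limma adjusted p of 0.9997, 0.9996 and 0.994. With 2 libraries against 2, an exact two-sided permutation test of a single value can give no p below 0.33.

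The 2 pairs of siRNA libraries, told apart by the prefix of their names, went in opposite directions by their means. Mean excess of Zfp last exons was -0.000972 in bham480 (TDG KD) and 0.00277 in bham479 (siRNA control), and 24.4% of 320 members were higher in TDG KD. In the other pair it was 0.00559 in ear003 (TDG KD) and 0.00204 in ear001 (siRNA control), and 46.2% of members were higher. For promoters 31.0% and 56.0% of members were higher in the 2 pairs. Of the last exons of other genes, 30.8% and 61.9% were higher in TDG KD. In the second pair a majority was thus higher among other genes but not among Zfp last exons, whose median difference was -0.000828. The Zfp genes were split there: 53.1% of lone last exons were higher, with a median of 0.00152. Of clustered ones 40.6% were higher, with a median of -0.00229. Whether the prefix marks a batch is not stated, and bham480 is the library with the fewest reads.

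**Figure D5:**
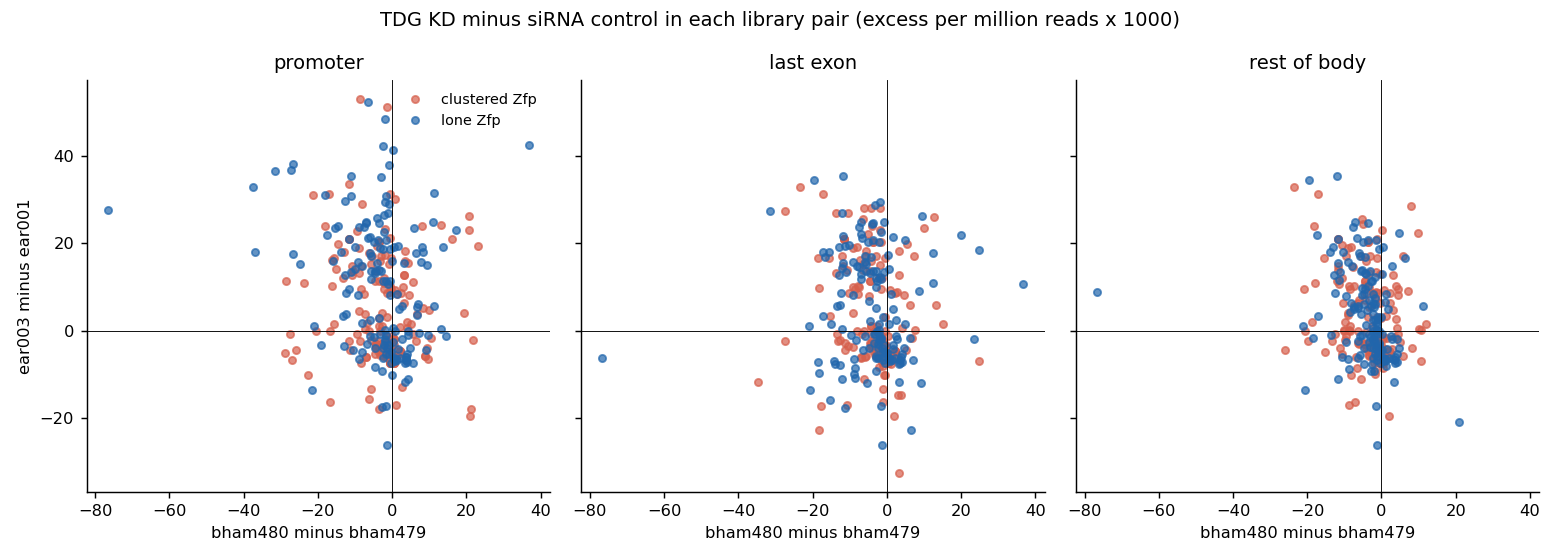
TDG KD minus siRNA control in excess per M reads, times 1000, for each Zfp gene in the pair bham480 and bham479 (horizontal axis) and in the pair ear003 and ear001 (vertical axis), by part. Each point is 1 gene; last exons were higher in TDG KD for 24.4% of members in the first pair and 46.2% in the second.

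Between siRNA control and WT no member passed either. The share of all genes called by limma at an adjusted p of 0.05 was 0.0%, 0.0% and 0.0% for promoters, last exons and the rest. At an unadjusted p under 0.05 there were 2246, 1454 and 2380 genes, and 37, 33 and 41 of them were Zfp genes, 34, 30 and 36 lower in siRNA control. They made up 11.1%, 10.3% and 12.8% of the members, near the 10.7%, 8.73% and 13.5% of all genes. Most genes of the whole table were lower in siRNA control as well, with 23.0%, 34.1% and 29.4% above 0. The median difference was -0.0105 per M reads for Zfp promoters and -0.0116 for all genes, -0.00399 and -0.00813 for last exons, and -0.00278 and -0.00574 for the rest. The smallest p for a promoter was that of Zfp457, for a last exon that of Zfp746 and for a rest of body that of Zfp640, with limma adjusted p of 0.395, 0.373 and 0.316. The excess of the Zfp457 promoter was lower in siRNA control than in WT, at -0.0366 ± 0.00636 (SE), and that of the Zfp746 last exon at -0.0403 ± 0.00657. Zfp640 stood out by its pattern: promoter, last exon and rest of body were each fully enriched in the 4 siRNA libraries (TDG KD and siRNA control) and at 0 in both WT libraries. Its excess in the rest of the body was 0.0439 ± 0.00720 (SE) higher in siRNA control than in WT. Only 7.70% of the 40-base words of its promoter and 8.75% of those of its last exon are unique, and the part of mapping in this pattern was not tested. The count of 0 for last exons depended on the libraries and rose above 0 without bham470. That fit left bham359_362, the deepest library with the narrow domains, as the only WT library. It was assumed to vary as the other conditions do. Over genes with a last exon and a rest, mean excess of Zfp last exons was 0.0156 in bham359_362 and 0.00572 in bham470. In siRNA control it was 0.00270 (bham479) and 0.00205 (ear001). For other genes it was 0.0206 and 0.0105 in WT, against 0.00747 and 0.00404.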

How the data were processed

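5fC was pulled down from J1 ES cells in 6 libraries and sequenced. The deposited values were rseg domains: the authors aligned reads with BWA 0.6.1 to mm9 (base calls by CASAVA), and each domain carries a state and a score, the mean difference of pulldown and input reads per bin. The deposited score is not scaled for depth, so excess is its difference from the library mean, divided by M reads. That division does not bring the single input to the depth of each pulldown. Excess can therefore still vary with depth between libraries. It is relative to a library and cannot show total 5fC. Parts needed 200 covered bp in all 6 libraries. The deposited calls are per library. limma 3.58.1 (R 4.3.3) was fitted on excess over all genes and was tested on simulated data. Python 3.11.15, NumPy 2.4.6, pandas 2.3.3 and matplotlib 3.10.9 did the rest. Other choices tried were the share that counts as enriched, promoter width, cluster distance, transcript, CpG class, mappability and scaling. Chromosome 7, chromosome 8 and each library were also left out in turn, and no other chromosome was. Members and lists were chosen with earlier results of these data known. Genes named were 16 of known role, the 3 highest and 3 lowest per part, the 2 highest and 2 lowest clustered and lone last exons, the 3 clusters with most members, 6 KRAB corepressor genes, members past the limma threshold (0), and any with the last exon enriched in all 6 libraries and the rest in none or the reverse (0 members). The members with the smallest p per fit, and clusters 10 and 39, were chosen after their values were seen. Zfp42 and the sex chromosomes were left out. Sequences were read from the mm9 genome.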

Additional observations from a re-analysis of the deposited data

How the results depend on the processing

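Most values kept their direction: 183 of the values for the main comparisons counted as the same, 16 moved and 3 reversed. A moved value kept its sign but changed by more, toward 0 or away from it. For shares of genes, the same meant a change smaller than the spread over libraries. For limma it meant a like number of genes called, and nearly all those runs called 0. Leaving out 1 library of 6 cannot move a mean beyond that spread, so those values had to count as the same. With any overlap counted as enriched, Zfp minus other genes was -5.35 points for promoters, and last exon minus rest was -11.3. With the whole part required, the rest gave -7.91 for Zfp minus other genes and -3.80 for clustered minus lone. Without chromosome 7, promoters gave -10.5 for Zfp minus other genes, and clustered minus lone was -17.7 in the last exon and -13.1 in the rest. With CpG-rich promoters alone, Zfp minus other genes was -3.78 in the last exon and -6.59 in the rest. Without them it was -14.6 in promoters, -23.4 in the last exon and -23.1 in the rest, while clustered minus lone was 3.27, -3.14 and 0.855 points and 0.00320, 0.00102 and 0.00268 in excess. With at least 90% unique words, promoters gave -11.4. With clusters joined at 50 kb, clustered minus lone was -5.24 in the last exon and -3.82 in the rest. The causes were not tested. Leaving out 1 library at a time, Zfp minus other genes ranged from -8.80 to -7.69 in promoters, -12.0 to -10.0 in last exons and -13.7 to -11.6 in the rest. Clustered minus lone ranged from -8.62 to -5.69, -11.3 to -9.85 and -9.42 to -7.26 in these parts, and last exon minus rest from 3.58 to 7.41. Calls by limma ranged from 0 to 3702 for siRNA control minus WT in last exons, and were 0 in all other limma alternatives run. Restricting the last exon to its coding part and weighting by CpG bins were chosen after seeing the data. The labels give no replicate numbers that conditions share, so the library prefix was the only pairing that could be fitted, and limma with it as a block called 0 genes in each part and contrast. The 2 libraries per condition, the single input, and the wide domains of 5 libraries limit what can be resolved.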
